A study of Homo sapiens with 8 samples.

Results

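The 7 chemokine genes CCL2, CCL5, CCL20, CXCL10, CXCL11, CXCL16 and CX3CL1, which attract lymphocytes and monocytes, are described here in human bladder cancer xenografts. They were found by symbol among the 58302 genes of the deposited count table, and all 7 passed the filter on low counts that left 18973 tested genes. The tumours were grown in mice from the bladder cancer line T24, an established human line. In the DDR1 group (4 libraries) the T24 cells carried enforced expression of DDR1, a collagen-activated receptor tyrosine kinase, and in the control group (4 libraries) the labels say only that the T24 cells were controls. The control vector, the promoter driving DDR1, the number of clones and the strain, age and immune status of the host mice were not stated in the labels. The comparison asks how the 7 transcripts differ between tumours with enforced DDR1 and control tumours.

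Chemokines are small secreted proteins that draw leukocytes along a gradient by binding G protein-coupled receptors. CXCL10 and CXCL11 are interferon-inducible ligands of CXCR3, a receptor of activated T cells and natural killer cells. CCL5 binds receptors such as CCR1 and CCR3 on T cells and monocytes, CCL2 recruits monocytes through CCR2, and CCL20 attracts CCR6-bearing lymphocytes and dendritic cells. CXCL16, the ligand of CXCR6, and CX3CL1 (fractalkine), the ligand of CX3CR1, differ from the others in being made as membrane-anchored proteins that the proteases ADAM10 and ADAM17 can release. In epithelial cells NF-kB, downstream of TNF and interleukin 1, and STAT and IRF factors, downstream of interferons, are known inducers of many of these genes.

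The bases before the transcription start are shown for the 3 of 7 members matched in the RefSeq promoter table (GRCh38.p14). The other members had no entry there. For CXCL11 and CCL20 the bases shown lie inside the gene models given below, not before their outer ends. Each run is the 250 bases up to the start, 5′ to 3′ on the gene's strand, and capitals mark matches to the motifs given next.
CXCL10 (chr4:76023498-76023747, minus strand): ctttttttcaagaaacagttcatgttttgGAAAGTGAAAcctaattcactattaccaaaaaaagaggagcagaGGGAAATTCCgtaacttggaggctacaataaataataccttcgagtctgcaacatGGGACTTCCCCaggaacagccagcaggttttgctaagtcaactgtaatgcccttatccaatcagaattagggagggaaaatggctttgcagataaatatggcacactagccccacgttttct
CXCL11 (chr4:76036071-76036320, minus strand): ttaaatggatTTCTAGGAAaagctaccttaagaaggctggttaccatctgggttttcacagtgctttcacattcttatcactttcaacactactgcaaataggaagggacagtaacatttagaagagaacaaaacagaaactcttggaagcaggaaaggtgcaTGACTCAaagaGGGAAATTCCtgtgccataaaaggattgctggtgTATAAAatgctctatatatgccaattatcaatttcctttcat
CCL20 (chr2:227813592-227813841, plus strand): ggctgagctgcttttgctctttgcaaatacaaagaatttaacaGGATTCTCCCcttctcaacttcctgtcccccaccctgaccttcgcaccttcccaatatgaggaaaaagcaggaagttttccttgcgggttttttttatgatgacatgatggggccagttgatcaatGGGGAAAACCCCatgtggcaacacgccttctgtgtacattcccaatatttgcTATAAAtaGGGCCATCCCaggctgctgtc
Both strands were searched for 5 motifs. The core of the interferon-stimulated response element stands in 3.02% of the 35116 promoters of this length and matched in CXCL10, as GAAAGTGAAA at positions -221 to -212 from the start. The NF-kB form stands in 54.4% of promoters and matched in all 3, overlapping itself in CXCL10 and CCL20. Its match GGGAAATTCC was identical in CXCL10 (positions -177 to -168) and CXCL11 (positions -76 to -67), and that string, picked out after the sequences were read, stands in 0.148% of promoters. TTCNNNGAA, the STAT form called GAS (6.57% of promoters), and TGANTCA, the AP-1 form (6.57%), matched in CXCL11 alone of the 3, and TATAAA (10.7%) matched in CXCL11 and CCL20. These matches describe letters and not bound sites.

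The libraries held 13716286 to 32271031 expected counts, and levels are given as CPM (counts scaled to library size) after TMM scaling, with means ± SD over the 4 libraries of a group. DDR1 itself stood at 159, 343, 427 and 810 CPM in DDR1 replicates 1 to 4, against 138, 110, 210 and 149 CPM in control replicates 1 to 4. The level in DDR1 replicate 1 lay between those of the controls, so it does not bear out the label, and it is called the library labelled DDR1 replicate 1 below. The edgeR quasi-likelihood test gave DDR1 a log2 fold change of 1.52 ± 0.43 (SE), with an unadjusted p of 0.00612 and an adjusted p of 0.9998. An exact two-sided permutation test on log2 CPM gave p = 0.0571. All DDR1 titles name lane 8, control titles 1 and 2 name lane 7 and control titles 3 and 4 name none, so lane and group cannot be told apart. The labels do not say that libraries came from separate animals, so the p-values below speak of variation among these libraries, part of which may be technical. DDR1 replicates 2, 3 and 4 share a title prefix, as do control replicates 3 and 4. The title of control replicate 2 begins like those of control replicates 3 and 4 but was counted as another prefix. Whether these libraries share a source was not tested.

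Keratin genes of epithelial cells were abundant, with KRT8 at a mean of 470.5 CPM over the 8 libraries. The epithelial genes EPCAM and CDH1 varied more, from 6.72 to 86.05 CPM and from 3.65 to 166.6 CPM. PPARG, at 16.6 CPM, led the urothelial list, and GATA3 reached at most 9.15 CPM. Among the uroplakins, UPK1A and UPK3A stayed at or below 0.129 and 0.209 CPM. UPK1B, UPK2 and UPK3B reached at most 1.89, 1.84 and 1.68 CPM. Most human leukocyte markers were low: 7 of 13 stayed under 10 counts in every library, and PTPRC (CD45) reached at most 0.167 CPM. The 3 that passed the filter on low counts were CD68, CD14 (1.72 to 5.79 CPM) and CSF1R (0.251 to 0.775 CPM). The summed leukocyte markers ran from 23.7 to 49.2 CPM in DDR1 libraries and from 16.5 to 39.4 CPM in controls, most of it CD68, which averaged 24.5 CPM. Endothelial markers summed to 9.08 to 76.0 CPM in DDR1 libraries and 8.65 to 55.9 CPM in controls, led by CDH5 at 20.96 CPM. PECAM1 reached at most 21.75 CPM and VWF 3.2 CPM. KDR, TEK and EMCN did not pass the filter on low counts and reached at most 0.292, 0.152 and 0.348 CPM. In bulk tumours, fewer cells of a type and less RNA per cell cannot be told apart. Summed genes of handling stress (led by HSPA1A) spanned 612 to 1319 CPM in DDR1 libraries and 579 to 1116 CPM in controls, and mitochondrial genes (led by MT-CO1) 14580 to 19550 CPM in DDR1 libraries and 9743 to 21230 CPM in controls. Reads of mouse origin can align to conserved human genes, and their part in these values was not tested.

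CXCL10 and CXCL11 were high or nearly absent depending on the library. CXCL10 (ENSG00000169245, GRCh38 chromosome 4, 76021117 to 76023497, minus strand) had 0.230 CPM in the library labelled DDR1 replicate 1 and 22.1, 52.0 and 0.10 CPM in DDR1 replicates 2 to 4. The controls held 26.1, 18.3, 6.46 and 96.2 CPM in replicates 1 to 4. The DDR1 group was split, with 2 libraries at almost no transcript and 2 inside the control range. The counts behind the low values were 8 in the library labelled DDR1 replicate 1 (95% exact Poisson interval 0.0993 to 0.453 CPM) and 2 in DDR1 replicate 4 (0.0121 to 0.361 CPM). These intervals cover counting error only, and their upper ends lie below each control level.

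CXCL11, also a CXCR3 ligand (ENSG00000169248, chromosome 4, 76033682 to 76041415, minus strand), is the neighbour of CXCL10, with 10184 bases between the gene models. It had 0.144 CPM in the library labelled DDR1 replicate 1 and 7.24, 24.5 and 0.15 CPM in DDR1 replicates 2 to 4. The controls held 5.87, 5.72, 1.72 and 45.9 CPM. The same libraries were high and low as for CXCL10: DDR1 replicate 3 and control replicate 4 stood highest in their groups, and the library labelled DDR1 replicate 1 and DDR1 replicate 4 stood lowest of all. Group means were 18.6 ± 24.6 CPM in DDR1 and 36.8 ± 40.4 CPM in control tumours for CXCL10 (SD, n = 4 each), and 8.02 ± 11.5 CPM in DDR1 and 14.8 ± 20.8 CPM in control tumours for CXCL11. The log2 fold changes were -0.98 ± 1.40 and -0.88 ± 1.41 (SE), and neither passed (edgeR unadjusted p = 0.502 and 0.550, both 0.9998 adjusted over all genes). Without control replicate 4 both were positive, at 0.14 for CXCL10 and 0.86 for CXCL11 (0.46 without control replicates 3 and 4), while limma-voom gave -3.11 and -2.13. Both gene models lie inside ART3 on the other strand, which averaged 0.15 CPM.

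CCL2, the monocyte chemokine (ENSG00000108691, chromosome 17, 34255218 to 34257203, plus strand), showed a spread of the same kind at a lower CPM. It had 0.144 CPM in the library labelled DDR1 replicate 1 and 4.21, 11.2 and 0.90 CPM in DDR1 replicates 2 to 4, against 3.93, 8.94, 0.129 and 14.7 CPM in control replicates 1 to 4. Very low libraries occurred in both groups, since control replicate 3 rested on 3 counts (exact Poisson interval 0.0266 to 0.378 CPM) and the library labelled DDR1 replicate 1 on 5 (0.0467 to 0.335 CPM). The means were 4.11 ± 5.03 CPM in DDR1 and 6.92 ± 6.32 CPM in control tumours. The log2 fold change of -0.75 ± 1.23 (SE) did not pass (edgeR unadjusted p = 0.557), and with 1 library left out it ran from -1.97 to -0.09.

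**Figure D1:**
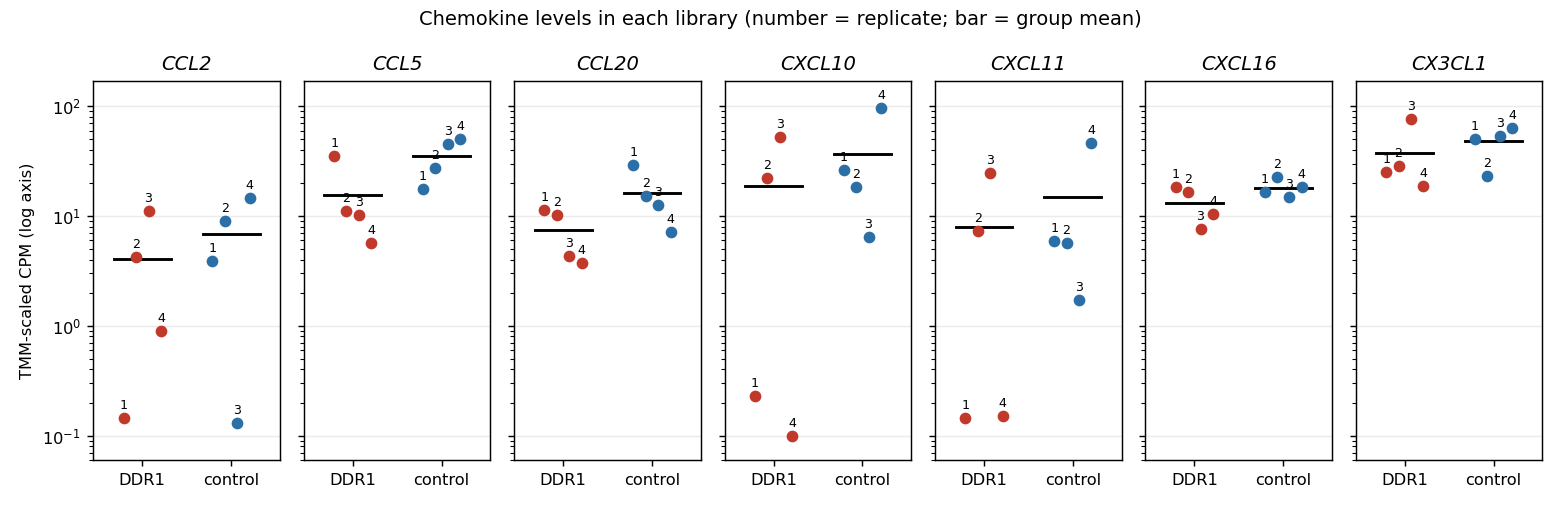
TMM-scaled CPM (log axis) of the 7 chemokines in the 4 DDR1 and 4 control libraries, with the replicate number above each point and the group mean as a bar. CXCL10 spans 0.10 to 96.2 CPM and CXCL11 0.144 to 45.9 CPM, while CXCL16 stays between 7.61 and 22.7 CPM.

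CCL5, the T cell and monocyte chemokine also called RANTES (ENSG00000271503, chromosome 17, 35871491 to 35880793, minus strand), had 35.0 CPM in the library labelled DDR1 replicate 1 and 11.2, 10.2 and 5.65 CPM in DDR1 replicates 2 to 4, against 17.6, 27.2, 45.2 and 50.9 CPM in control replicates 1 to 4. DDR1 replicates 2, 3 and 4 lay below every control, and the library labelled DDR1 replicate 1 lay among the controls. The means were 15.5 ± 13.2 CPM in DDR1 and 35.2 ± 15.5 CPM in control tumours (SD, n = 4 each), a ratio of 0.441. The log2 fold change was -1.18 with an SE of 0.55 and an approximate 95% interval of -2.41 to 0.05. It did not pass edgeR (unadjusted p = 0.0584, adjusted p = 0.9998) or an exact permutation test, two-sided, on log2 CPM (p = 0.0857, where 0.0286 is the smallest that 70 orderings allow). With 1 library left out it ran from -1.96 to -0.89. The low end came without the library labelled DDR1 replicate 1 and had the lowest p of these 8 fits (edgeR unadjusted p = 0.00117, adjusted p = 0.937). Without control replicates 3 and 4 the log2 fold change was -0.52, and -0.45 when libraries sharing a title prefix were added together. A gene antisense to CCL5, AC015849.1, covers the whole model and averaged 0.0258 CPM.

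CCL20, the CCR6 ligand (ENSG00000115009, chromosome 2, 227805739 to 227817564, plus strand), had 11.4 CPM in the library labelled DDR1 replicate 1 and 10.3, 4.33 and 3.70 CPM in DDR1 replicates 2 to 4. The controls held 29.5, 15.2, 12.5 and 7.16 CPM. Control replicates 1, 2 and 3 stood above every DDR1 library, and control replicate 4 fell between the DDR1 values. The means were 7.42 ± 3.97 CPM in DDR1 and 16.1 ± 9.53 CPM in control tumours, a ratio of 0.461. Its log2 fold change of -1.11 ± 0.50 (SE) was the 1 member under an unadjusted p of 0.05 in edgeR (p = 0.0497, adjusted p = 0.9998), and the exact two-sided permutation p was 0.143. It was -0.37 without control replicates 1 and 2, and -0.64 without control replicate 1.

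CXCL16, which is made as a membrane-anchored protein (ENSG00000161921, chromosome 17, 4733526 to 4739922, minus strand), had 18.5 CPM in the library labelled DDR1 replicate 1 and 16.6, 7.61 and 10.4 CPM in DDR1 replicates 2 to 4, against 16.5, 22.7, 14.9 and 18.5 CPM in control replicates 1 to 4. DDR1 replicates 3 and 4 lay below all controls and the other two DDR1 libraries lay among them. Its log2 fold change was -0.45 ± 0.29 (SE) with an approximate 95% interval of -1.11 to 0.21 (edgeR unadjusted p = 0.160). The model overlaps MED11 on the other strand by 85 bases, and MED11 averaged 9.76 CPM.

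CX3CL1 (ENSG00000006210, chromosome 16, 57372458 to 57385048, plus strand) had 25.4 CPM in the library labelled DDR1 replicate 1 and 28.3, 76.1 and 18.9 CPM in DDR1 replicates 2 to 4. The controls held 50.6, 23.1, 53.8 and 63.8 CPM. DDR1 replicate 3 stood above all controls, and control replicate 2 stood among the low DDR1 libraries. The means were 37.2 ± 26.3 CPM in DDR1 and 47.8 ± 17.4 CPM in control tumours. The log2 fold change of -0.36 ± 0.45 (SE) did not pass (edgeR unadjusted p = 0.444). It was -0.97 without DDR1 replicate 3 (edgeR unadjusted p = 0.0158, adjusted p = 0.864) and 0.01 without control replicates 3 and 4.

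Set side by side, the log2 fold changes of all 7 members lay below 0, with a median of -0.88, while 50.5% of the 18973 tested genes lay below 0 and their median was -0.00298. None of the 7 was called at an adjusted p under 0.05, and over all genes edgeR called 0 (0%), with 791 genes (4.17%) at an unadjusted p under 0.05. limma-voom called 0 genes and DESeq2 called 15, none of them a member. Of the 7, CCL20 alone (1 member) had an unadjusted p under 0.05 in the lower direction, against 2.24% of all tested genes in that direction and 1.93% in the higher one. The groups overlapped for every member, while 1.13% of tested genes had all DDR1 libraries below all controls and 1.27% had them all above. The members were chosen with earlier results of these data known, so the shared direction is a description and was given no test. The median was -0.17 without control replicate 4.

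**Figure D2:**
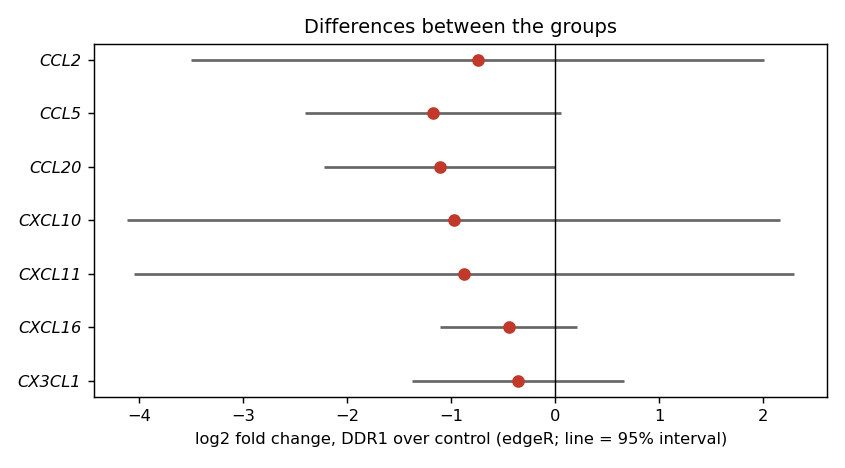
Log2 fold change of DDR1 over control for each chemokine (points, edgeR) with an approximate 95% interval (lines). All 7 points lie left of 0, and the intervals of CXCL10 (-4.12 to 2.16), CXCL11 and CCL2 are the widest.

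The spread inside a group was larger for CXCL10, CXCL11 and CCL2 than for nearly all other genes. The within-group SD of log2 CPM, pooled over both groups, was 3.16 for CXCL10, 2.80 for CXCL11 and 2.60 for CCL2, and 99.9%, 99.7% and 99.6% of the 18973 tested genes had a smaller one. The median over all tested genes was 0.39. CCL5 (0.92), CCL20 (0.83) and CX3CL1 (0.77) exceeded 89.6%, 87.2% and 85.0% of genes. CXCL16, at 0.46, exceeded 61.0%. From the lowest to the highest library, CXCL10 spanned 520.0-fold in DDR1 and 14.9-fold in control tumours, and CCL2 spanned 77.7-fold in DDR1 and 113.8-fold in control tumours. The low ends of the CXCL10 range in DDR1 tumours and of both CCL2 ranges rest on 2 to 5 counts.

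**Figure D3:**
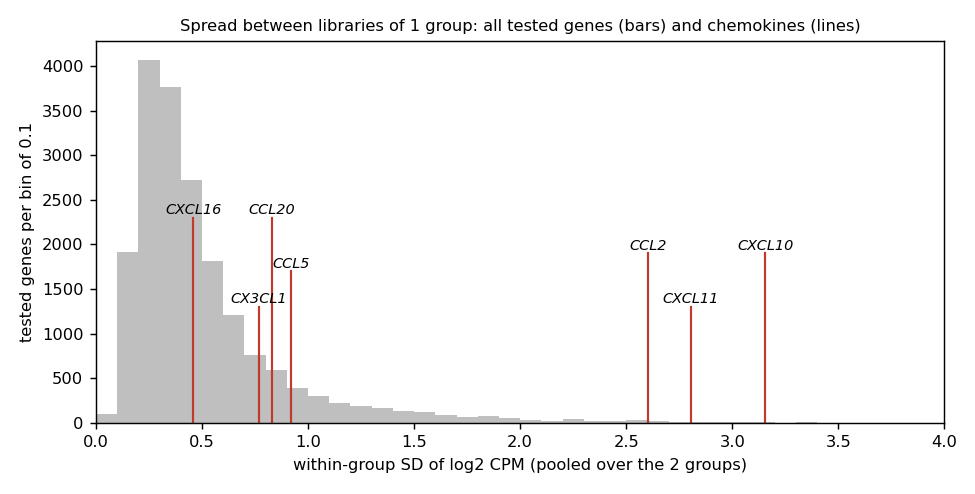
Histogram of the within-group SD of log2 CPM over the 18973 tested genes (bars, bins of 0.1), with red lines at the 7 chemokines. CXCL10, CXCL11 and CCL2 stand at 3.16, 2.80 and 2.60, far above the median of 0.39.

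CXCL10 and CXCL11 kept a similar ratio to each other. Their count ratio was 3.06 in DDR1 replicate 2 and 2.12 in DDR1 replicate 3, against 4.45, 3.20, 3.75 and 2.10 in control replicates 1 to 4, and the other two DDR1 libraries held too few counts for a ratio. The library labelled DDR1 replicate 1 and DDR1 replicate 4 stood apart, so the relation is given over the other 6 libraries. There Pearson's r of log2 CPM was 0.98 and Spearman's rho 0.94 (exact permutation p = 0.00417 and 0.0167, adjusted p = 0.0875 and 0.350 over the 21 pairs of members). CCL2 came next over these 6 libraries, with r = 0.86 and rho = 0.77 against CXCL10 (exact permutation p = 0.0139 and 0.103, adjusted 0.117 and 0.525) and r = 0.84 and rho = 0.83 against CXCL11 (exact permutation p = 0.0167 and 0.0583, adjusted 0.117 and 0.525). None of the 21 pairs passed an adjusted p of 0.05 over these 6 libraries, which were chosen after the values were seen. Over all 8 libraries CXCL10 with CXCL11 had r = 0.979 and rho = 0.952, with an adjusted exact permutation p of 0.00365 for r and 0.0240 for rho. The call ended over 6 libraries though r and rho hardly changed. Fewer libraries raise the smallest p that a permutation test can reach, so the lost call does not show a weaker relation. CCL5 did not order the libraries this way: the library labelled DDR1 replicate 1, nearly devoid of CXCL10, held 35.0 CPM of CCL5, and DDR1 replicate 3, at 52.0 CPM of CXCL10, held 10.2 CPM of CCL5.

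**Figure D4:**
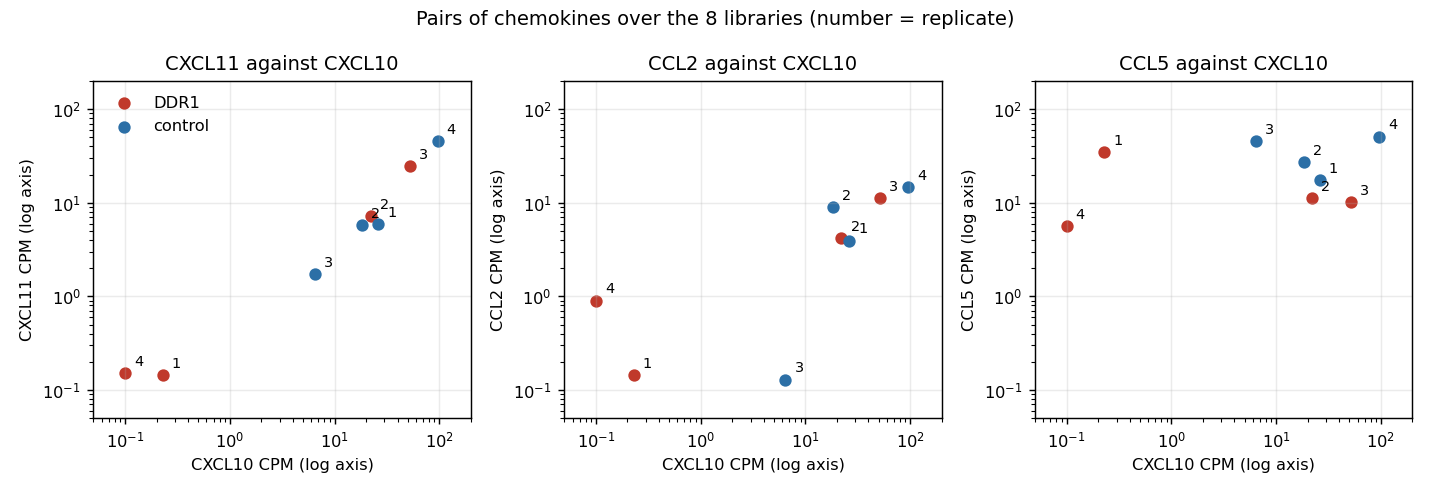
CPM of CXCL11, CCL2 and CCL5 (vertical, log axes) against CXCL10 (horizontal, log axis) in each library, DDR1 in red and control in blue, with replicate numbers. CXCL11 lies on a line with CXCL10, while CCL5 at 35.0 CPM in the library labelled DDR1 replicate 1 sits beside a CXCL10 level of 0.230 CPM.

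The summed genes listed as markers of fibroblasts and pericytes, though not each gene, stood in an order of libraries close to that of CXCL10. The 7 matched markers summed to 7.85 CPM in the library labelled DDR1 replicate 1 and 31.2, 47.1 and 13.4 CPM in DDR1 replicates 2 to 4, against 24.1, 22.8, 18.0 and 71.5 CPM in control replicates 1 to 4. COL1A1 led the list at a mean of 11.03 CPM. Within it PDGFRA ran from 0.172 to 16.7 CPM in DDR1 tumours and from 1.03 to 33.1 CPM in controls. ACTA2, smooth muscle actin, stood in another order, with 4.05, 5.12, 12.6 and 3.45 CPM in the DDR1 libraries in replicate order, against 3.16, 4.72, 8.09 and 11.96 CPM in controls. PDGFRB was highest in control replicate 1, at 4.04 CPM. The defining fibroblast genes DCN and LUM reached at most 0.418 and 0.388 CPM in any library, and COL1A2 at most 0.961 CPM. The tumours grew in mice from a human line, so these values could come from T24 cells or from mouse reads aligned to human genes. Their source, and any link to the chemokine levels, was not tested. Control replicates 3 and 4, which share a title prefix, held the lowest and the highest CXCL10, CXCL11 and CCL2 of the controls.

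Levels of different genes were compared per kilobase of exon. CXCL10 stood first in both groups, at 15.8 ± 20.9 CPM per kb in DDR1 and 31.3 ± 34.4 in control tumours, and CCL5 next, at 10.3 ± 8.74 CPM per kb in DDR1 and 23.3 ± 10.2 in control tumours. CCL2 stood last, at 2.07 ± 2.53 CPM per kb in DDR1 and 3.49 ± 3.18 in control tumours. In between, DDR1 tumours held CX3CL1 at 6.21, CXCL16 at 4.76, CCL20 at 4.66 and CXCL11 at 4.20 CPM per kb. Control tumours held CCL20 at 10.1, CX3CL1 at 7.99, CXCL11 at 7.76 and CXCL16 at 6.49 CPM per kb. In DDR1 tumours every step between neighbours was smaller than the larger SD of the pair. In controls that held for all steps but the one from CCL5 to CCL20. Within single libraries the leading gene per kb was CXCL10 in DDR1 replicates 2 and 3 and in control replicates 1 and 4, and CCL5 in the other 4.

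The receptors of these chemokines had few counts. Of 13 listed receptors, 2 passed the filter on low counts, and neither was called. CXCR6, the receptor of CXCL16, had 2.76, 2.78, 2.10 and 3.15 CPM in the DDR1 libraries in replicate order, against 3.05, 2.59, 3.79 and 2.28 CPM in controls (log2 fold change -0.12, edgeR unadjusted p = 0.664). ACKR4, a scavenging receptor, had a log2 fold change of 0.01. CCR2 reached at most 0.167 CPM in any library, CXCR3 0.411 CPM and CX3CR1 0.474 CPM. Some receptors under the filter reached more in a few libraries. ACKR1 had 4.82 CPM in DDR1 replicate 3 and at most 0.538 CPM elsewhere. ACKR2 had 3.796 CPM in DDR1 replicate 2, 2.30 CPM in control replicate 2 and at most 0.405 CPM elsewhere. CCR4 had 1.89 CPM in control replicate 3 and at most 0.229 CPM elsewhere. CCR6 had a count of 0 in every library, which allows up to 0.0862 to 0.228 CPM (3 counts) depending on depth.

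All 4 listed proteases that act on the members were tested and 0 were called. The sheddase gene ADAM10 had 160, 276, 206 and 213 CPM in the DDR1 libraries in replicate order, against 168, 239, 126 and 139 CPM in controls (log2 fold change 0.34 ± 0.24, SE). ADAM17 had a log2 fold change of -0.35 ± 0.26 and DPP4, which trims CXCL10, CXCL11 and CCL5, -0.29 ± 0.55. CTSS, the lysosomal protease cathepsin S, had 6.58, 15.4, 10.3 and 4.45 CPM in the DDR1 libraries, against 13.02, 19.2, 27.4 and 39.5 CPM in controls. Its log2 fold change of -1.43 ± 0.44 had an edgeR unadjusted p of 0.00916 and an adjusted p of 0.9998, and DDR1 replicate 2 lay inside the control range.

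Of 28 other chemokines of lymphocytes, monocytes and dendritic cells, 2 passed the filter and 0 were called. CCL28, a chemokine of mucosal epithelia, had 9.94, 7.21, 4.57 and 2.10 CPM in the DDR1 libraries, against 3.27, 9.90, 4.05 and 5.79 CPM in controls (log2 fold change 0.05 ± 0.49). CCL21, a CCR7 ligand of lymphatic vessels, had a log2 fold change of 1.05 ± 1.14 and reached at most 5.22 CPM. CXCL9, the remaining CXCR3 ligand and the neighbour of CXCL10, stayed at or below 0.609 CPM.

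Among 18 cytokines and receptors that induce chemokines, 13 were tested, 8 lay below 0 and 5 above, and the median log2 fold change was -0.09. Interleukin 1 and TNF stood at the low end of this list. IL1B had 11.4, 16.2, 22.7 and 17.1 CPM in the DDR1 libraries in replicate order, against 76.9, 36.4, 32.2 and 35.2 CPM in controls, without overlap. Its log2 fold change of -1.42 ± 0.32 (SE) had an edgeR unadjusted p of 0.00148 and an adjusted p of 0.9998. IL1A had 4.60, 11.99, 20.0 and 4.50 CPM in the DDR1 libraries, against 46.1, 23.6, 17.0 and 29.2 CPM in controls (log2 fold change -1.50 ± 0.51, unadjusted p = 0.0159). TNF had 3.42, 2.69, 8.42 and 7.35 CPM in the DDR1 libraries, against 21.2, 7.06, 7.88 and 18.1 CPM in controls (log2 fold change -1.31 ± 0.48, unadjusted p = 0.0230). IL17RC, a subunit of the interleukin 17 receptor, had -0.38 ± 0.23. Transcripts of the interferons IFNB1 and IFNG stayed at or below 0.152 and 0.0418 CPM. The interferon IFNL1, also under the filter, had 0.316, 0.158, 0 and 0.05 CPM in the DDR1 libraries in replicate order. In controls it had 0.0554, 0.292, 1.12 and 0.838 CPM.

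Of 11 transcription factor genes that act at chemokine promoters, all were tested, 10 had a log2 fold change below 0 and the median was -0.45. RELB, an NF-kB subunit, had 4.77, 6.96, 7.24 and 7.60 CPM in the DDR1 libraries, against 12.96, 7.77, 15.3 and 15.5 CPM in controls, without overlap (log2 fold change -0.96 ± 0.27, edgeR unadjusted p = 0.00617). NFKB1 had -0.46 ± 0.17 (unadjusted p = 0.0242), IRF7 -0.87 ± 0.37 (0.0426) and NFKB2 -0.51 ± 0.25 (0.0649), and none was called.

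**Figure D5:**
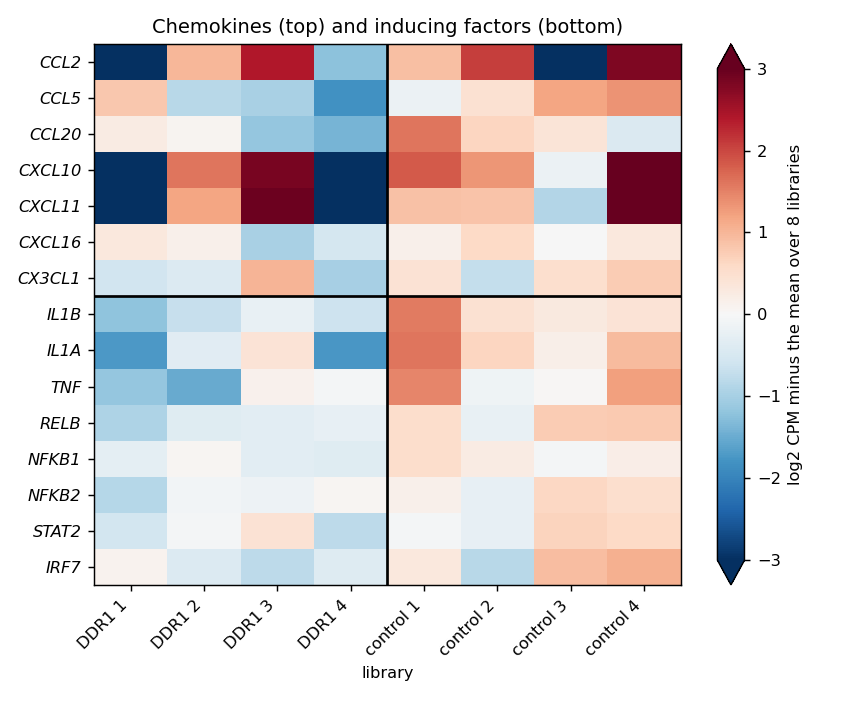
Log2 CPM minus the mean over 8 libraries (colour, cut at -3 and 3) for the 7 chemokines above the line and 8 inducing factors below it, DDR1 libraries left of control libraries. CXCL10 and CXCL11 share their dark low libraries, and IL1B and RELB are lower in all 4 DDR1 libraries than in any control.

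For each member the protein-coding genes most alike over the 8 libraries were taken, by Pearson's r of log2 CPM, among 10976 other genes averaging at least 5 CPM. With so many genes searched over so few libraries, the values are given as descriptions. CXCL10 was most like SGIP1 (r = 0.987) and CDK14 (r = 0.986). CDK14, a cyclin-dependent kinase, had 1.26 CPM in the library labelled DDR1 replicate 1 and 34.5, 70.8 and 1.5 CPM in DDR1 replicates 2 to 4, against 42.6, 35.2, 13.7 and 55 CPM in controls. CXCL11 was most like CXCL10 (r = 0.979) and CTSB (0.973), the gene of cathepsin B, and CCL2 like SGCB (0.984) and FLRT2 (0.980). CCL5 was most like FANCF (0.948) and ZNF93 (0.948), CCL20 like HEATR1 (0.958) and RRM2 (0.957), CXCL16 like ESCO2 (0.951) and PGRMC1 (0.947), and CX3CL1 like PTPN3 (0.936) and ACO1 (0.935).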

How the data were processed

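RNA from homogenised tumours was sequenced after poly-T selection as paired ends of 150 bases, per the labels' protocols, which do not mention strand marking. The submitters' processing notes name RSEM 1.3.1, STAR 2.7.5, Trim Galore 0.6.4, FastQC 0.11.9 and the build GRCh38, and per the labels any removal of mouse reads is not stated. The authors deposited expected counts per gene (estimated counts, 26.5% of values above 0 not whole), which were rounded here. The authors also deposited TMM-normalized values on a log2 scale, used only as an alternative. Libraries were grouped by the condition label and numbered in accession order.

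Identifiers were matched to GENCODE release 29 (58039 of 58302). Genes were filtered with filterByExpr (minimum count 10), scaled by TMM and tested by quasi-likelihood in edgeR 4.0.16 (R 4.3.3; alternatives in limma 3.58.1 and DESeq2 1.42.0) with no covariate, Benjamini-Hochberg adjustment over all 18973 tested genes and a threshold of 0.05. A prior count of 2 was added for log2 CPM. The script was tested on simulated data. Libraries of a group were checked for duplication: the mean chi-square per gene between any pair was 42.0 to 324 (about 1 if only sampling noise differed), so all 8 were kept. Totals leave counting error small beside the spread between libraries, except at counts of 10 or fewer. The members and lists were chosen with earlier results of these data known. Named genes are the members, DDR1, up to 4 genes of each list with the smallest unadjusted p, the top gene of each marker list, and the 2 genes most alike to each member. Other names (PDGFRA, PDGFRB, ACTA2, DCN, LUM, COL1A2, PTPRC, CD14, CSF1R, KDR, TEK, EMCN, EPCAM, CDH1, GATA3, the uroplakins, receptors under the filter, CXCL9, IFNB1, IFNG and IFNL1) were picked after values were seen. Some listed genes are not reported here by name. Alternatives covered other scalings, tools and filters, protein-coding genes alone, left-out libraries and summed libraries.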

Additional observations from a re-analysis of the deposited data

Results flagged for a closer look

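Among 14 sets of 4 libraries (7 members in each group), 2 held a library far from the other 3 on the CPM scale. Chance alone flags about 1 in 20 such sets only where values are normally distributed. Skewed CPM values can be flagged more often, and the log2 scale was not checked. CXCL11 stood at 45.9 CPM in control replicate 4, while the other controls lay between 1.72 and 5.87 CPM. CX3CL1 stood at 76.1 CPM in DDR1 replicate 3, while the other DDR1 libraries lay between 18.9 and 28.3 CPM.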

How the results depend on the processing

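None of the 7 members was called under any of the 19 alternatives run (lowest adjusted p 0.812, for CCL5 and CCL20 without control replicate 2). The count of called genes stayed at 0 except with DESeq2, which called 15 (8 higher and 7 lower in DDR1); the cause was not tested. CCL5, CCL20 and CXCL16 stayed below 0 under each alternative, as did CCL2 where it was tested (it did not pass the filter of 5 CPM in 4 libraries). Without the controls that have no lane, CXCL11 turned to 0.46 and CX3CL1 to 0.011. With 1 library left out, log2 fold changes ran from -2.28 to 0.14 for CXCL10, -2.53 to 0.86 for CXCL11, -1.97 to -0.09 for CCL2, -1.96 to -0.89 for CCL5, -1.39 to -0.64 for CCL20, -0.65 to -0.26 for CXCL16, and -0.97 to -0.13 for CX3CL1. The median of the 7 ran from -1.16 to -0.17. Both positive values came without control replicate 4. limma-voom gave -3.11 for CXCL10 and -2.13 for CXCL11, and limma-trend on the deposited log2 values -3.16 and -2.17; these average on the log scale, where near-zero libraries weigh more. No paired analysis was possible because the labels give no replicate numbers that tie libraries of the groups together. Depth limits the lowest values, which rest on 2 to 8 counts.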
